A study of Mus musculus with 15 samples.

Results

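Transcripts of 9 mouse genes that act in inflammasomes, pyroptosis and necroptosis were followed in cardiac and hepatic allografts: Nlrp3, Aim2, Pycard, Casp1, Casp4, Gsdmd, Zbp1, Ripk3 and Mlkl. The genes were chosen by function, as the sensors, adaptor, caspases, pore-forming proteins and kinase of these pathways, and every probe that matched one of them was taken. This gave 10 probes of the 41174 on the array, 2 for Pycard and 1 for each of the other genes, and 9 of the 32301 genes of the series. Of these 32301, 18217 had a matched gene symbol. The rest were transcripts counted under their name on the array, and all shares of all genes include them. Expression was measured on 15 single-colour Agilent arrays in 5 groups of 3. In the heart, C57BL/10 (B10) grafts placed heterotopically in the abdomen of sex-matched CBA recipients were taken at post-operative day 5 (POD5) and set against heart controls. In the liver, B10.BR grafts placed orthotopically in B10.D2 recipients by a cuff technique were taken at POD5 and at POD8 and set against liver controls. All of the mice bought for the study were male and of inbred strains, and neither their age nor the strain of the controls was given in the sources used here. The labels and methods call the controls normal tissue, and other text of the study calls them isografts or syngeneic grafts, so both are called controls here. Strain pair, operation and organ change together between the heart and liver groups and cannot be told apart.

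An inflammasome is a protein platform that a sensor such as Nlrp3 or Aim2 builds when it meets a danger or microbial signal. The sensor recruits the adaptor Pycard (ASC), which gathers pro-caspase-1 (Casp1). Active Casp1 matures some cytokines of the interleukin-1 family, such as Il1b. It also cuts gasdermin D (Gsdmd), whose released end opens pores in the plasma membrane, a lytic death called pyroptosis. Casp4 of the mouse cuts Gsdmd directly after it binds intracellular lipopolysaccharide. Necroptosis is a second lytic death, in which the kinase Ripk3 phosphorylates Mlkl, which then disrupts the membrane. Zbp1, a sensor of Z-form nucleic acids, can engage Ripk3. Macrophages, T cells and, for several of these genes, parenchymal cells carry the transcripts, and interferons raise many of them.

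The array signal of a gene is given as log2 of the processed intensity after quantile normalization over the 15 arrays, so a difference of 1 is a doubling. Levels of a gene were compared between groups for 1 probe and not between probes, since probes differ in brightness. Only the sums of cell type markers add the signals of several probes, and bright probes weigh most in them. For a gene with several probes, the brightest was used. A gene was called in a comparison when its limma p-value, adjusted by the Benjamini-Hochberg method over all probes, was under 0.05. Before normalization the 75th percentile of the signal was 394 to 710 on the heart allografts, 1021 to 1247 on the heart controls, 338 to 478 on the liver allografts and 92.1 to 226 on the liver controls, so the liver controls were the dimmest arrays. Liver control 1 was the dimmest of them, at 92.1 against 165 and 226 on the other controls, and had the lowest share of probes well above background. Between 52.5% and 70.5% of probes were well above background on an array, and no spot was saturated. The 3 heart allografts shared 1 slide and the 3 heart controls another, so an effect of the slide cannot be told apart from one of the graft there. In the liver, 1 slide held 2 allografts at POD8 and 2 controls. The POD5 liver allografts shared no slide with the liver controls or the POD8 allografts. An effect of the slide thus cannot be told apart from one of the graft at POD5, or of the day, either. Of 5 hepatocyte genes, Alb, Apoa1 and Ttr were not well above background on any heart array, whereas Cyp2e1 was on 2 arrays of each heart group, at group means of 4.97 and 5.63 against 14.98 to 15.98 in the liver, and Serpina1c on 1 allograft and 2 controls. Of 6 cardiomyocyte genes, Myh6, Mb and Ryr2 were not well above background on any liver array. Actc1 and Tnni3 were on every liver array, at group means of 8.69 to 10.46 and 5.21 to 6.04 against 16.98 to 17.06 and 16.14 to 17.12 in the heart, and Tnnt2 on 2 liver controls and 2 POD5 liver allografts. The labels give no animal for an array, so p-values measure the spread between these samples, and 3 arrays a group limit the precision.

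Promoter sequence was taken for 7 of the 9 genes, all but Gsdmd and Zbp1, from RefSeq windows of the assembly GRCm38.p6 that run from 250 bases before to 50 bases after a transcript start. These windows were searched on both strands for the GAS motif (TTCNNNGAA), which binds interferon-activated STAT dimers, for the core of the interferon-stimulated response element (GAAANNGAAA) and for the kappa-B consensus of the NF-kappaB factors. Of 32851 windows of this length, 8.30% held the first, 3.44% the second and 8.46% the third. Only Casp4 and Nlrp3 held a match, in each case to the kappa-B consensus, and their windows are shown here. Casp4 was called higher in every comparison of allografts with controls, as were Pycard and Mlkl, whose windows held no match. Nlrp3 was called in the heart alone, as were Casp1 and Ripk3, whose windows held no match either. Capitals mark the matched bases. The Casp4 window lies at chr9:5308599-5308898 on the plus strand and that of Nlrp3 at chr11:59541319-59541618 on the plus strand.
Casp4: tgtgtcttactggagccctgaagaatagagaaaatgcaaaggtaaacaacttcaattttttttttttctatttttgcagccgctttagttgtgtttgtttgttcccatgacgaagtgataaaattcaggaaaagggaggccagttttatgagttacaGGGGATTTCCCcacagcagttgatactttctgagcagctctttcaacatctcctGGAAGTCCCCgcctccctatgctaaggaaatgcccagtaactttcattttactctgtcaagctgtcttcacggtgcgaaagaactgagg
Nlrp3: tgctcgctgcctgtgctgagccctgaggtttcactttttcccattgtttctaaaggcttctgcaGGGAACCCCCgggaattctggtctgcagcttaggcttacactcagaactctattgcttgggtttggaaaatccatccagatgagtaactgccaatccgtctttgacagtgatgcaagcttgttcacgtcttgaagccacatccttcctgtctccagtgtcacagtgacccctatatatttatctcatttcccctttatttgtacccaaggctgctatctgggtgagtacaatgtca
In the Casp4 window 2 matches overlapped, the first of them starting at -93 from the start site, and another started at -39. A second, overlapping Casp4 window held the same matches. The Nlrp3 match started at -186, and the other Nlrp3 window held none. The windows of Casp1, Aim2, Pycard, Ripk3 and Mlkl held none of the 3 motifs.

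In heart allografts at POD5, 8 of the 9 genes were called higher than in heart controls, while 15.5% of all genes tested were called higher and 15.2% lower, and 21.1% of those well above background in a group were called higher. All 8 had every allograft above every control, as had 30.0% of all genes. The median difference over the 8 genes above background was 2.01 on the log2 scale, or 4.04-fold, against 0.03 over all genes. The DNA sensor Aim2 was the exception. None of the 15 arrays showed it well above background, and its processed signal was 1.41 to 4.99, so no difference is given for it.

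**Figure D1:**
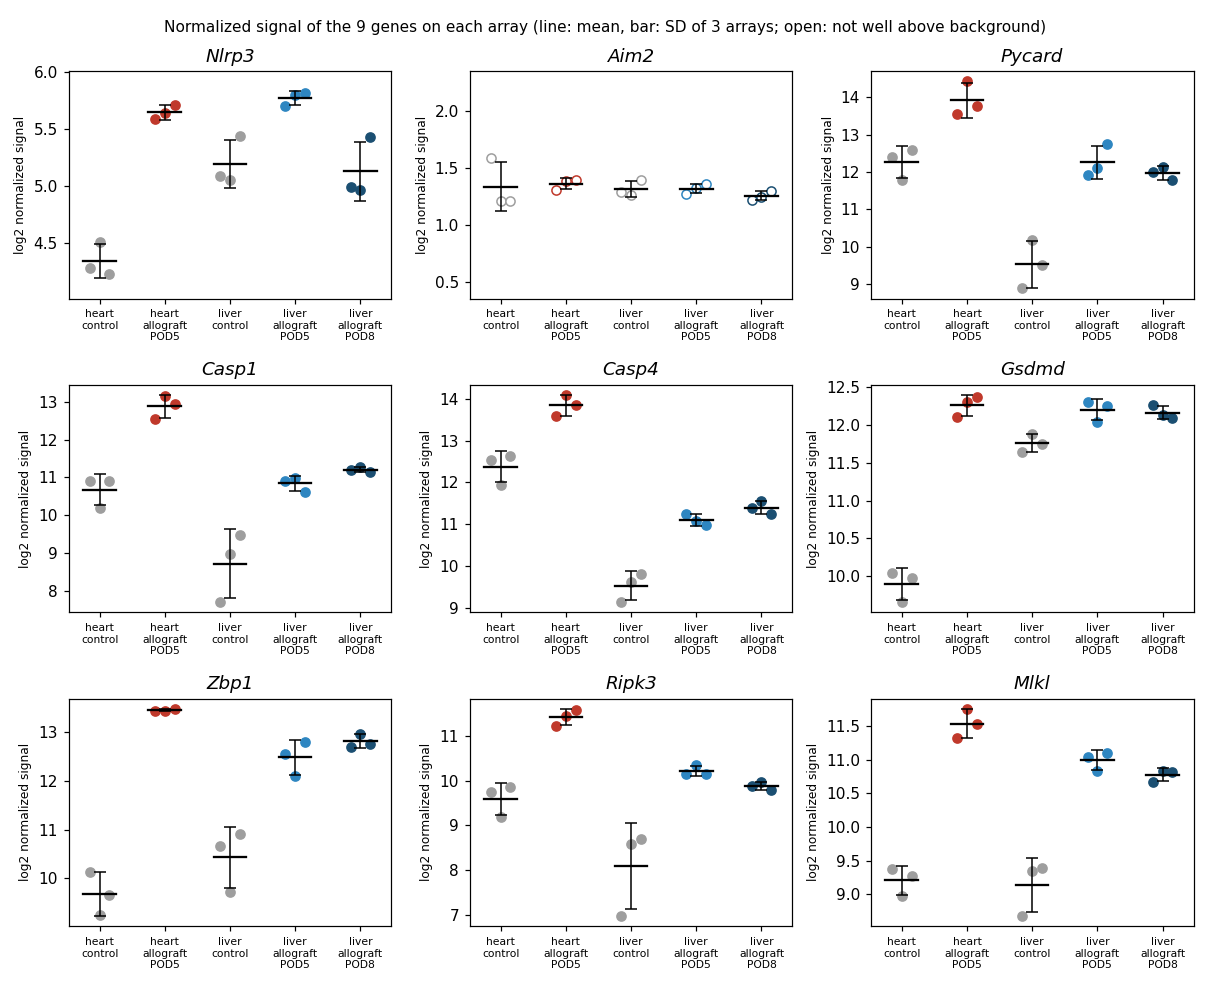
Log2 normalized signal of the brightest probe of each gene (y axis, each panel with its own range) on each of the 15 arrays, by group (x axis); points are arrays, the long line is the mean, the bar its SD (n = 3), and open points are not well above background. For 8 of the 9 genes the 3 heart allografts lie above the 3 heart controls, while Aim2 stays between 1.21 and 1.59 in every group.

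Among the sensors, Zbp1 showed the largest difference of the 9 genes in the heart. Its log2 signal was 10.14, 9.24 and 9.65 on the heart controls and 13.45, 13.44 and 13.49 on the heart allografts. The allografts lay close together (SD 0.02, n = 3), far above the controls, a 13.8-fold difference (log2 3.79, SE 0.24, adjusted p = 9.26e-04). In the liver it was 10.66, 9.71 and 10.91 on the liver controls, 12.56, 12.10 and 12.80 on the liver allografts at POD5 and 12.71, 12.98 and 12.77 at POD8. Every liver allograft exceeded every control, although the controls spread over more than 1 log2 unit. The difference was 2.06 (SE 0.38) at POD5, which missed the threshold at adjusted p = 0.057, and 2.39 (SE 0.34, adjusted p = 0.027) at POD8, a 5.25-fold rise.

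Nlrp3, the sensor of ion fluxes and membrane damage, was read from a dim probe, well above background on every array at 4.23 to 5.81, where the lowest signal well above background on an array was 2.37 to 4.56. Its log2 signal was 4.28, 4.51 and 4.23 on the heart controls and 5.59, 5.64 and 5.72 on the heart allografts. The heart groups did not overlap and the difference was 2.47-fold (log2 1.31, SE 0.11, adjusted p = 0.0016). With normexp background correction and an offset of 50, which compresses dim signals, the difference shrank to 0.51 and kept its call (adjusted p = 0.0011). In the liver Nlrp3 read 5.09, 5.05 and 5.44 on the liver controls, 5.70, 5.80 and 5.81 on the liver allografts at POD5 and 4.99, 4.97 and 5.43 at POD8. The POD5 allografts stood just above the controls, by 0.58 (SE 0.16, adjusted p = 0.12), while the POD8 allografts overlapped them, with a difference of -0.06 (95% interval -0.54 to 0.42). Nlrp3 was the only measured gene of the set that did not have all POD8 allografts above all controls.

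Pycard, the adaptor that links sensor to caspase, showed the largest difference of the 9 genes in the liver at POD5. Its brightest probe read 12.41, 11.77 and 12.59 on the heart controls and 13.54, 14.43 and 13.78 on the heart allografts. The heart allografts lay above all controls, by 3.17-fold (log2 1.66, SE 0.32, adjusted p = 0.016), with allograft 2 the highest. In the liver the same probe read 8.89, 10.17 and 9.50 on the liver controls, 11.91, 12.11 and 12.74 on the liver allografts at POD5 and 12.00, 12.14 and 11.77 at POD8. The liver allografts stood 6.64-fold above the controls at POD5 (log2 2.73, SE 0.40, adjusted p = 0.037) and 5.46-fold at POD8 (log2 2.45, SE 0.35, adjusted p = 0.027). The POD5 call was lost without any 1 of the 6 arrays, with differences of 2.40 to 3.04 and adjusted p = 0.053 to 0.128. The second Pycard probe gave smaller differences in the same direction, 1.57 (heart, adjusted p = 0.021), 2.04 (liver POD5, adjusted p = 0.031) and 1.86 (liver POD8, adjusted p = 0.015).

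Casp1, the protease of canonical inflammasomes, read 10.92, 10.20 and 10.91 on the heart controls and 12.55, 13.15 and 12.93 on the heart allografts. The heart allografts exceeded the controls 4.60-fold (log2 2.20, SE 0.27, adjusted p = 0.0040). In the liver Casp1 read 7.70, 8.97 and 9.47 on the liver controls, 10.91, 10.98 and 10.62 on the liver allografts at POD5 and 11.19, 11.26 and 11.14 at POD8. Control 1 was the lowest liver array by more than 1 log2 unit, and the spread of the controls (SD 0.91, n = 3) went with differences that missed the threshold, 2.12 (SE 0.47, adjusted p = 0.086) at POD5 and 2.49 (SE 0.47, adjusted p = 0.051) at POD8. Every liver allograft still lay above every control. Without control 1 the differences were 1.61 (adjusted p = 0.053) at POD5 and 1.97 (adjusted p = 0.015) at POD8.

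Casp4, the lipopolysaccharide-binding caspase of the non-canonical pathway, read 12.54, 11.95 and 12.63 on the heart controls and 13.59, 14.09 and 13.86 on the heart allografts. The heart difference was 2.78-fold (log2 1.47, SE 0.23, adjusted p = 0.0087) and the groups did not overlap. In the liver Casp4 read 9.14, 9.62 and 9.81 on the liver controls, 11.26, 11.07 and 10.99 on the liver allografts at POD5 and 11.39, 11.55 and 11.24 at POD8. The liver allografts lay 2.99-fold above the controls at POD5 (log2 1.58, SE 0.22, adjusted p = 0.032) and 3.66-fold at POD8 (log2 1.87, SE 0.21, adjusted p = 0.015). Casp4 and Casp1 are neighbours on chromosome 9, and only the Casp4 window shown above carried kappa-B matches.

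Gsdmd, the pore-forming substrate of both caspases, divided the organs. Its log2 signal was 10.05, 9.66 and 9.98 on the heart controls and 12.11, 12.30 and 12.38 on the heart allografts. The heart allografts were 5.15-fold above their controls (log2 2.37, SE 0.14, adjusted p = 8.68e-04). In the liver Gsdmd read 11.65, 11.88 and 11.75 on the liver controls, 12.30, 12.04 and 12.26 on the liver allografts at POD5 and 12.27, 12.14 and 12.09 at POD8. The liver controls already stood close to the allografts of both organs, and although no allograft fell among the controls, the differences were only 0.44 (SE 0.14, adjusted p = 0.18) at POD5 and 0.41 (SE 0.12, adjusted p = 0.13) at POD8.

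For necroptosis, the kinase Ripk3 read 9.74, 9.19 and 9.86 on the heart controls and 11.23, 11.46 and 11.59 on the heart allografts. The heart difference was 3.55-fold (log2 1.83, SE 0.21, adjusted p = 0.0037). In the liver Ripk3 read 6.98, 8.59 and 8.69 on the liver controls, 10.15, 10.35 and 10.16 on the liver allografts at POD5 and 9.88, 9.97 and 9.80 at POD8. Control 1 was again lowest, the allografts lay above all controls, and the differences of 2.13 (SE 0.49, adjusted p = 0.093) at POD5 and 1.80 (SE 0.49, adjusted p = 0.12) at POD8 missed the threshold. Without control 1 they were smaller, 1.57 and 1.24, and passed it, with adjusted p = 0.027 and 0.014.

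Mlkl, the membrane-disrupting target of Ripk3, read 9.37, 8.97 and 9.27 on the heart controls and 11.33, 11.76 and 11.53 on the heart allografts. The heart allografts were 5.05-fold higher (log2 2.34, SE 0.17, adjusted p = 0.0012). In the liver Mlkl read 8.68, 9.34 and 9.39 on the liver controls, 11.04, 10.83 and 11.11 on the liver allografts at POD5 and 10.66, 10.83 and 10.82 at POD8. The allografts exceeded all controls, 3.62-fold at POD5 (log2 1.86, SE 0.24, adjusted p = 0.028) and 3.11-fold at POD8 (log2 1.64, SE 0.23, adjusted p = 0.026).

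In liver allografts at POD5, 3 of the 9 genes, Casp4, Pycard and Mlkl, were thus called higher, where 2.50% of all genes were called higher and 0.812% lower (3.90% higher among genes well above background). The allografts of 8 of the 9 lay above all controls, as did those of 12.2% of all genes, and the median difference over the 8 genes above background was 1.96 against -0.08 over all genes. At POD8 4 of the 9 were called, the same 3 genes and Zbp1, where 3.54% of all genes were called higher and 1.55% lower (5.21% higher among genes well above background). The allografts of 7 of the 9 lay above all controls, as did those of 11.9% of all genes. No member was called lower in any allograft group. The POD5 and POD8 comparisons share the liver controls. The liver counts depended on single arrays. At POD5 none of the genes was called after leaving out any one allograft or control 2, 1 (Casp4) after leaving out control 3, and 3 after leaving out control 1, when Ripk3 was called in place of Pycard. At POD8 none was called after leaving out any one allograft, 6 after leaving out control 1, 3 after control 2 and 4 after control 3. With slide as a random block none was called at POD5 and 5 at POD8. On the slide that held 2 POD8 allografts and 2 controls, the differences were 2.09 for Casp4, 2.54 for Pycard, 2.66 for Zbp1 and 1.74 for Mlkl, each as large as over all arrays, and none passed the threshold with 4 arrays (adjusted p = 0.092 to 0.145). The controls on this slide were controls 1 and 2, so the dimmest array was among them. The part of that array in these differences was not tested. The heart count was 8 without any 1 of the 6 arrays.

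**Figure D2:**
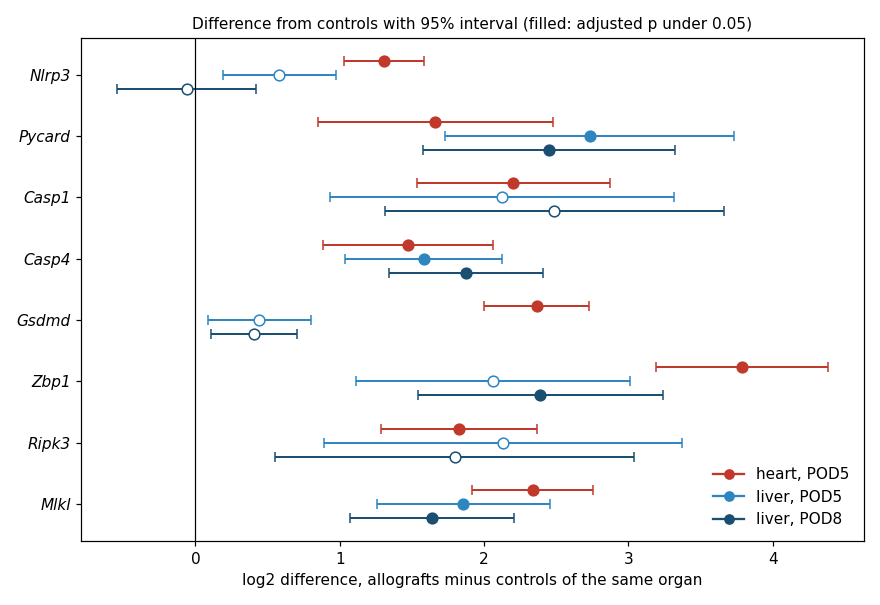
Log2 difference of allografts from controls of the same organ (x axis) with its 95% interval for the 8 genes above background (y axis); filled points passed an adjusted p of 0.05. The heart interval of Gsdmd, which ends at 2.73, lies beyond both liver intervals, which end at 0.80 and 0.70, while those of Casp1 and Casp4 overlap across organs.

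The question whether the 2 organs differed at POD5 was tested as an interaction, the heart difference minus the liver difference. The difference was larger in the heart for 3 of the 9 genes, Gsdmd, Zbp1 and Nlrp3, where 9.01% of all genes were called larger in the heart and 9.13% smaller (11.4% larger among genes well above background). For Gsdmd the heart difference exceeded that of the liver by 1.92 (SE 0.20, adjusted p = 1.66e-04), a ratio of folds of 3.79. The call of Gsdmd was kept without any 1 of the 15 arrays, with a range of 1.81 to 2.01. For Zbp1 the excess was 1.72 (SE 0.43, adjusted p = 0.018), and with slide as a random block it was 1.65 and missed the threshold (adjusted p = 0.055). For Nlrp3 it was 0.73 (SE 0.22, adjusted p = 0.039), and with slide as a random block it was 0.77 and missed the threshold too (adjusted p = 0.052). It fell to 0.25 (adjusted p = 0.070) with normexp background correction, and without single arrays it ranged from 0.60 to 0.81, with the call lost without any heart allograft, any liver allograft at POD5, heart control 1 or 3, liver control 3 or POD8 allograft 1 (adjusted p up to 0.093).

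The remaining genes gave no call between organs. The difference between organs was 0.08 for Casp1 (95% interval -1.05 to 1.21), -0.11 for Casp4 (-0.79 to 0.57), -0.31 for Ripk3 (-1.43 to 0.82) and 0.48 for Mlkl (-0.13 to 1.09). For Pycard it was -1.07 (-2.15 to 0.01), toward the liver, and its second probe gave -0.47. These intervals allow differences of more than 2-fold for Casp1, Ripk3, Mlkl and Pycard, so the genes cannot be said to respond alike in the 2 organs. Without liver control 1, Mlkl also passed, at 0.71 (adjusted p = 0.049).

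**Figure D3:**
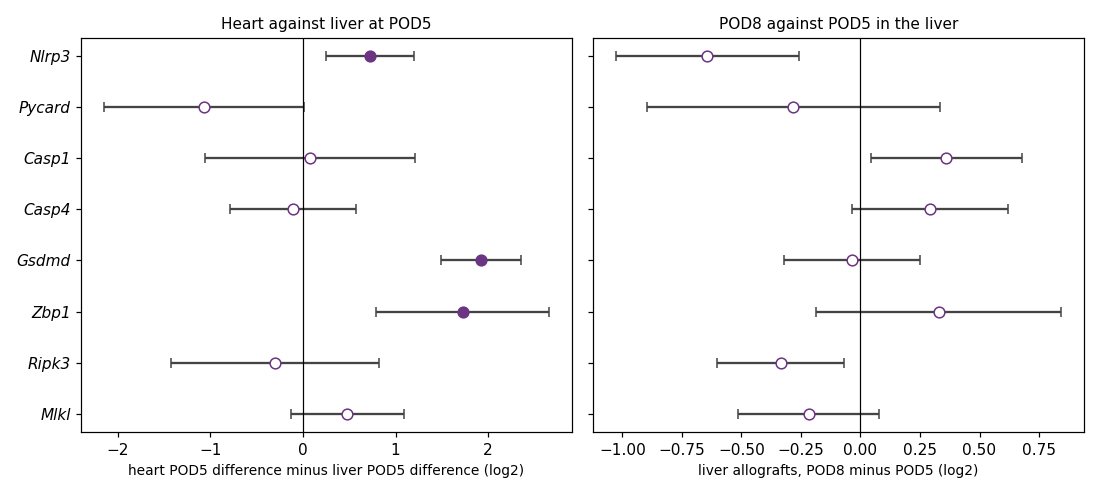
Left, difference between the heart and the liver in their POD5 difference from controls; right, liver allografts at POD8 minus POD5; both on the log2 scale (x axis) with 95% intervals for the 8 genes above background (y axis), filled where the adjusted p was under 0.05. Gsdmd, Zbp1 and Nlrp3 are filled on the left, and no gene is filled on the right.

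Between POD5 and POD8 in the liver none of the 9 genes was called, nor was any of the 32292 genes tested (0%). Without adjustment 3 of the 9 had a limma p under 0.05, as had 4276 of all genes. The methods' t-test with Benjamini-Hochberg adjustment also called none of the 9, and 3 of all genes. SFC, the study's standardized fold change, with Bonferroni adjustment, called none of the 9 and 183 of all genes. The 3 members with an unadjusted limma p under 0.05 were Casp1, higher at POD8 by 0.36 (95% interval 0.04 to 0.68, adjusted p = 0.35), Nlrp3, lower by 0.64 (-1.03 to -0.26, adjusted p = 0.26), and Ripk3, lower by 0.33 (-0.60 to -0.07, adjusted p = 0.32). The arrays of the 2 days did not overlap for these 3 genes. The 2 days shared no slide, so slide and day cannot be told apart. Over all genes, the POD8 arrays lay wholly above for 8.83% and wholly below for 11.2%.

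Over the 5 groups, the heart allografts had the highest mean of Casp1, Casp4, Pycard, Zbp1, Ripk3 and Mlkl, and the liver controls the lowest of Casp1, Casp4, Pycard, Ripk3 and Mlkl. For Casp1 and Ripk3 the heart controls overlapped the neighbouring liver allografts. For Casp4 the heart controls, at a mean of 12.37, exceeded the liver allografts of both days, at 11.10 and 11.40, without overlap. For Mlkl the heart and liver controls overlapped, at 9.20 and 9.14, and for Zbp1 likewise, at 9.67 and 10.43. Gsdmd stood apart, with the 3 allograft groups overlapping at 12.26, 12.20 and 12.17, the liver controls below them at 11.76 and the heart controls far below at 9.90. The order of those 3 allograft groups turned when arrays were scaled to their 75th percentile. So did the order of the heart controls and liver allografts at POD5 for Pycard, which overlapped at 12.26 and 12.25.

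The partners of these genes moved in part with them. Of 51 pathway genes measured in 4 lists, 28 were called higher and 5 lower in heart allografts, 10 higher in liver allografts at POD5 and 14 at POD8, and none lower in the liver. Median differences were 0.91, 0.59 and 0.75. These shares of higher genes, 54.9%, 19.6% and 27.5%, stand against 15.5%, 2.50% and 3.54% of all genes.

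**Figure D4:**
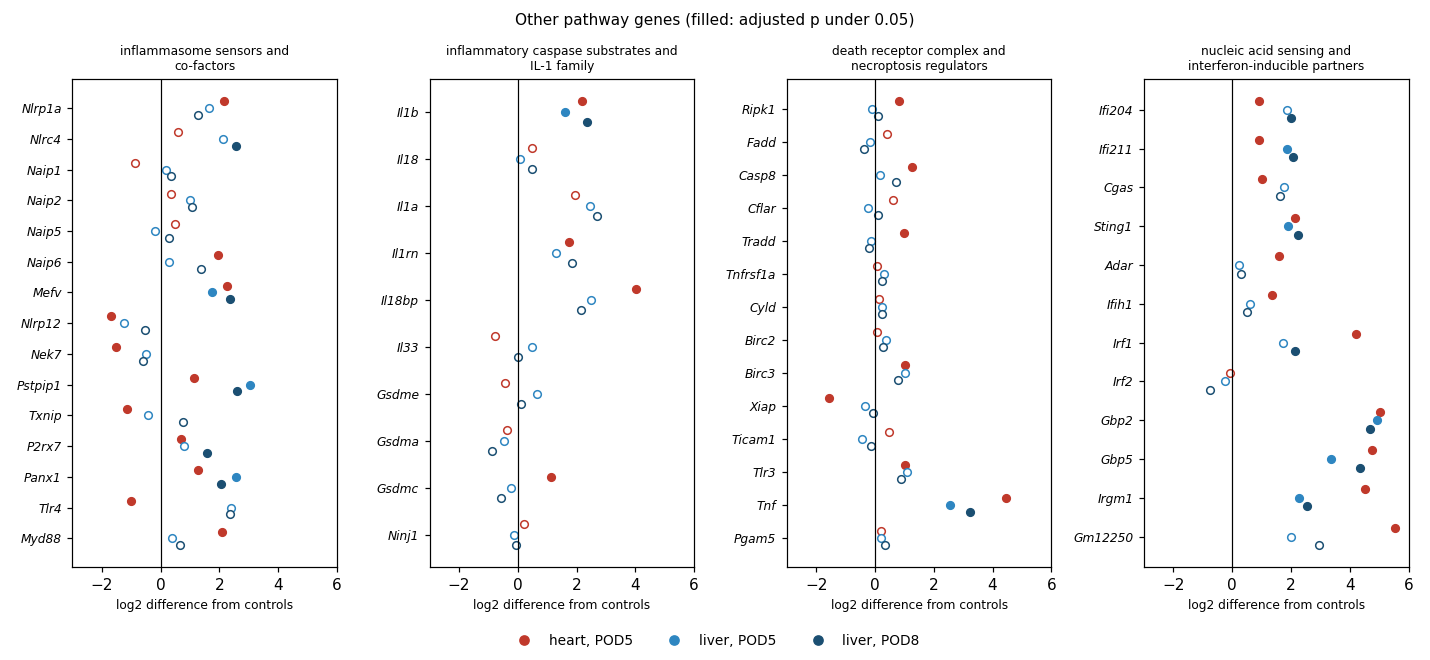
Log2 difference from controls (x axis) of 51 further pathway genes (y axis) in 4 lists, coloured by comparison and filled where the adjusted p was under 0.05. Filled points are densest among the interferon-inducible partners, where 11 of 12 genes were called in the heart.

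Of 15 inflammasome sensors and co-factors measured, 7 were called higher and 4 lower in the heart, 3 higher in POD5 livers and 5 in POD8 livers, with medians of 0.60, 0.81 and 1.28. Mefv (pyrin), Pstpip1, which binds pyrin, and the channel Panx1 were called in all 3 comparisons. Mefv was higher by 2.27, 1.76 and 2.37, Pstpip1 by 1.15, 3.03 and 2.59, and Panx1 by 1.27, 2.57 and 2.06 in heart, liver at POD5 and liver at POD8. Nlrc4, the sensor adaptor for bacterial flagellin, was not well above background on any liver control and was at least 2.47-fold higher at POD8 (adjusted p = 0.039), as was P2rx7, the ATP-gated channel upstream of Nlrp3, with a difference of 1.56 (adjusted p = 0.033). The adaptor Myd88 rose in the heart by 2.08 (adjusted p = 0.0010) and the sensor Nlrp1a by 2.16 (adjusted p = 0.0077). Nlrp1a was well above background on only 2 heart controls, whose group mean was 2.79. The lowest signal well above background on a heart control was 2.37 to 2.61. The lipopolysaccharide receptor Tlr4 fell in the heart to 0.499 of its control level (adjusted p = 0.0041), and its liver difference at POD5 was 2.40 (adjusted p = 0.15). The organs differed for Tlr4 by -3.41 (adjusted p = 0.0068). The other 3 lower genes in the heart, named after their values were seen, were Nek7, the kinase that bridges Nlrp3 subunits, at -1.51, Txnip at -1.13 and Nlrp12, which was not well above background on any heart allograft and was at least 1.53-fold lower (adjusted p = 0.049).

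Of 10 substrates and interleukin-1 family genes, 4 were called higher in the heart and 1 in the liver on each day, with medians of 0.81, 0.57 and 0.31. Il1b, the cytokine that Casp1 matures, was the one called throughout, with differences of 2.19 in the heart and, in the liver, of 1.60 at POD5 and 2.35 at POD8. Il18bp, the decoy of interleukin-18, rose 16.3-fold in the heart (log2 4.03, adjusted p = 1.85e-04), and its liver differences of 2.50 and 2.16 had adjusted p = 0.057 and 0.060. The receptor antagonist Il1rn rose by 1.74 and the gasdermin Gsdmc by 1.13 in the heart. In the liver Il1rn differed by 1.31 at POD5 and 1.85 at POD8 (adjusted p = 0.19 and 0.076). Gsdmc differed there by -0.23 and -0.57 (adjusted p = 0.54 and 0.16). Il1a had differences of 1.94, 2.44 and 2.70 with adjusted p = 0.073, 0.28 and 0.22. Il18 itself was not called, at 0.50, 0.08 and 0.49.

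Of 14 death receptor and necroptosis regulators, 6 were called higher and 1 lower in the heart, and 1 higher in POD5 livers and 1 in POD8 livers, with medians of 0.55, 0.19 and 0.24. Tnf, the ligand whose receptor can start necroptosis, was higher in all 3 comparisons, by 4.47, 2.55 and 3.22. Casp8, the protease that restrains Ripk3, was higher in the heart by 1.24 (adjusted p = 0.0056), and its liver differences were 0.16 and 0.71 (adjusted p = 0.86 and 0.20). Tlr3, the receptor for double-stranded RNA, rose in the heart by 1.02 (adjusted p = 0.0023), and its liver differences were 1.08 and 0.87 (adjusted p = 0.078 and 0.051). Birc3, a ubiquitin ligase of the Tnf receptor complex, rose in the heart by 1.01 (adjusted p = 0.0087), with liver differences of 1.02 and 0.80 (adjusted p = 0.072 and 0.056). Xiap, an inhibitor of caspases, fell in the heart by 1.57 (adjusted p = 0.016).

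Of 12 nucleic acid sensing and interferon-inducible partners, 11 were called higher in the heart, 5 in POD5 livers and 7 in POD8 livers, with medians of 1.86, 1.86 and 2.10. The guanylate-binding proteins Gbp2 and Gbp5, which act on pathogen membranes upstream of Casp4, were higher by 5.03 and 4.74 in the heart. Their liver differences were 4.91 and 3.37 at POD5, and 4.67 and 4.34 at POD8. Irgm1 was higher by 4.51, 2.28 and 2.55, the adaptor Sting1 by 2.14, 1.88 and 2.24, and Ifi211 by 0.91, 1.86 and 2.08. Irf1, a transcription factor of the interferon response, rose in the heart by 4.21 (adjusted p = 5.15e-04) and in the liver at POD8 by 2.12 (adjusted p = 0.032). At POD5 its liver difference was 1.72 (adjusted p = 0.058). Gm12250, the mouse Irgb10, rose in the heart by 5.52 (adjusted p = 5.32e-04), and its liver differences of 2.01 and 2.96 had adjusted p = 0.56 and 0.37. The DNA sensor Ifi204 rose in the heart by 0.90 and in the liver at POD8 by 1.98, and Cgas in the heart by 1.02. The liver difference of Ifi204 at POD5 was 1.86 (adjusted p = 0.066). Those of Cgas were 1.75 at POD5 and 1.62 at POD8 (adjusted p = 0.11 and 0.12). Between POD5 and POD8 none of the 51 genes was called by limma, and 8 had an unadjusted p under 0.05. Between organs, 10 of the 51 were called larger in the heart and 6 smaller.

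Cell type markers moved with the same comparisons. The 7 T cell markers were all called higher in the heart and 5 of 7 in the liver on each day, with medians of 18.1-fold, 28.7-fold and 18.8-fold. Not called in the liver were Cd3e, at 0.74 and 0.71, and Cd4, which went the other way, at -0.16 and -0.40. Cd8a was well above background on no liver control. Their summed signal was 412 to 615 on heart controls and 10040 to 15350 on heart allografts, and 363 to 485 on liver controls, 6857 to 11440 on liver allografts at POD5 and 6084 to 7640 at POD8. Of 7 macrophage and monocyte markers, 2 were called higher in the heart and 3 in the liver on each day. Their summed signal went from 70280 to 93460 on heart controls to 183000 to 207200 on heart allografts, and from 11450 to 24530 on liver controls to 63020 to 71790 at POD5 and 75560 to 82240 at POD8. The sum is weighted to bright markers, and Ly6c2 was the brightest in the heart, at 15.07 on controls and 16.78 on allografts. Single markers in the heart differed by -0.33 (Adgre1) to 1.71 (Ly6c2), with a median of 0.79. Adgre1, Lyz2 (0.12), Csf1r (0.56), Ccr2 (0.79) and Mpeg1 (1.11) were not called there. Among the liver controls, control 1, the dimmest array, had the lowest sum of every marker list but that of B cells, and the lowest signal of Casp1, Casp4, Pycard, Gsdmd, Ripk3 and Mlkl. The part of its dim signal in these values was not tested.

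The 4 natural killer cell markers were all called higher in the heart, with sums of 89.2 to 120 on controls and 455 to 554 on allografts, and 1 and 2 of the 4 in the liver, where sums were 41.0 to 49.8 on controls, 135 to 181 at POD5 and 145 to 195 at POD8. On a liver control, 0 to 1 of the 4 were well above background. Klrk1 was called on both days. Ncr1 was called at POD8, well above background on 2 allografts and no control. At POD5 neither Ncr1 nor Klra4 was above it in either group. No B cell marker of 5 was called against controls, and the sums overlapped. All 4 endothelial markers were called lower in the heart, with sums of 5775 to 6602 on controls and 1467 to 2569 on allografts, and none in the liver. Of 6 cardiomyocyte markers 3 were called lower in the heart, with sums of 755600 to 878700 on controls and 466900 to 644000 on allografts. Hepatocyte markers were not called in the liver, with sums of 420100 to 543600 on controls and 393400 to 477800 on POD5 allografts. Of 4 Kupffer cell markers, which label the resident macrophages of the liver, 3 were called lower in the heart. Of these, Clec4f was well above background on no heart allograft and on 1 heart control. Timd4 went the other way in the heart, by 1.90 (adjusted p = 0.068). None of the 4 was called in the liver, but the sum on every liver allograft lay above that on every control, at 17590 to 49240 on controls, 55820 to 65050 at POD5 and 66760 to 72060 at POD8. Control 1 had 17586 and the other controls 48136 and 49242. This sum is weighted to Cd5l, the brightest of the 4, at 14.61 on liver controls and 15.65 at POD5. Clec4f and Vsig4 differed by -0.40 and -0.30 at POD5, against 1.49 for Timd4 and 1.03 for Cd5l. At POD8 the differences were 0.25 to 1.44. Of 5 neutrophil markers 1 was called in each direction in the heart and 1, Ngp, lower in POD5 livers, where it was not well above background in either group. The part of these cell types in the results for the 9 genes was not tested, and in whole tissue more cells of a type and more RNA per cell cannot be told apart.

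**Figure D5:**
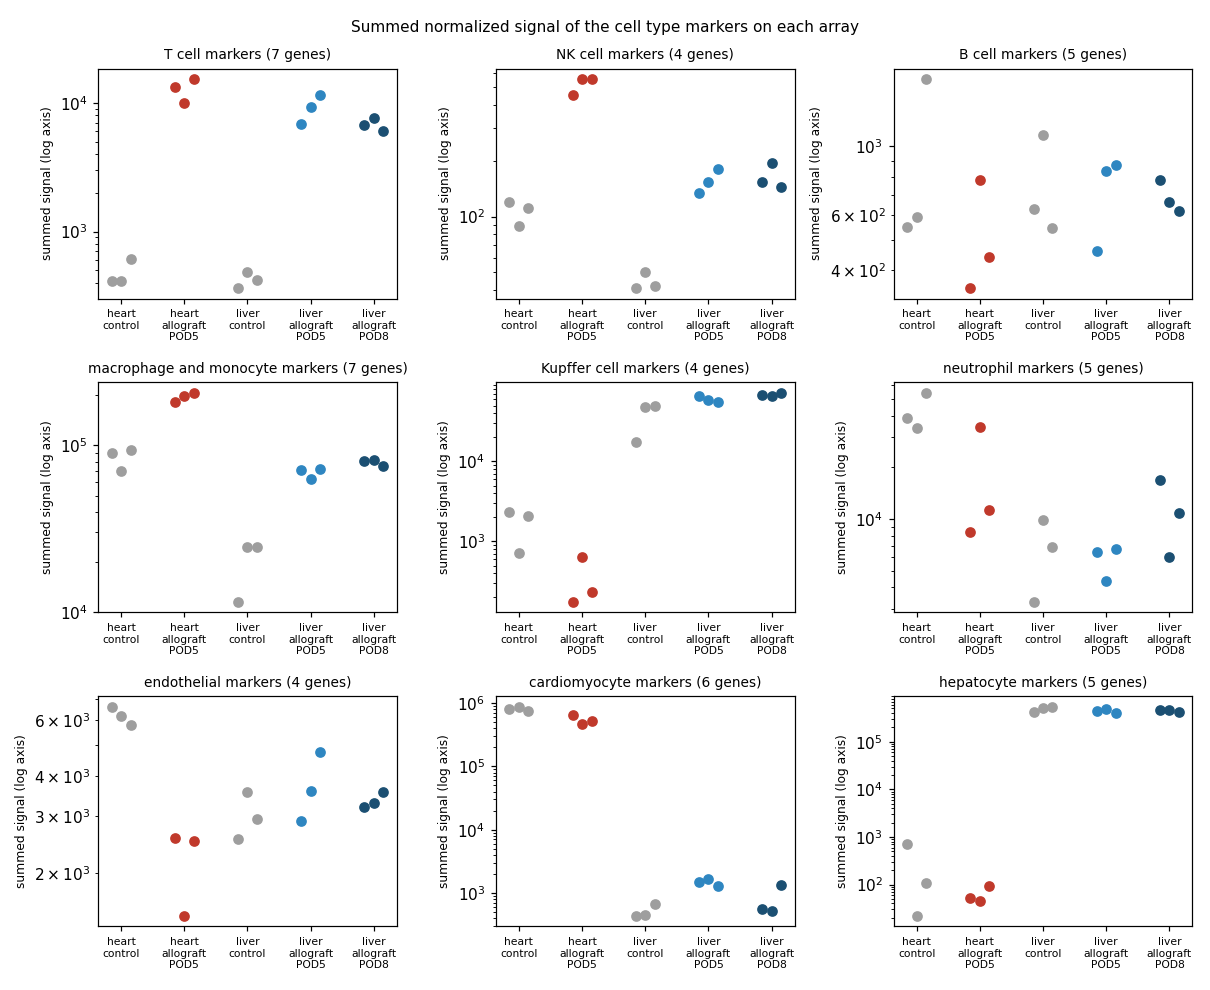
Summed normalized signal (y axis, log scale) of the markers of 9 cell types on each of the 15 arrays, by group (x axis); each point is an array. T cell and macrophage sums are higher on every allograft than on any control of the same organ, and endothelial sums are lower on the heart allografts. Each sum is weighted to the brightest markers of its list.

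The genes most like each member were found as those with the smallest root mean square difference over the 15 arrays, with each gene centred on the controls of its own organ, among 21554 genes. Arrays share their normalization, so these distances are a description. For Casp1 the nearest were Ifi30 (0.20), Slc11a1 (0.23) and Tnfsf10 (0.23). For Casp4 they were an unnamed probe (0.17), Fcer1g (0.19) and Cmtm7 (0.22), and for Pycard Capg (0.22), Tspan32 (0.24) and Rac2 (0.27). Gsdmd lay nearest to Ifi35 (0.13), Pik3ap1 (0.19) and C2 (0.20). These were chosen for their likeness on the same arrays, so like differences follow from the choice. They were 2.33 to 2.48 in the heart and 0.30 to 0.57 in the liver at POD5. Zbp1 lay nearest to Ifi47 (0.26), an unnamed transcript (0.33) and Irf1 (0.35). Ripk3 lay nearest to Ctsc (0.21), Galnt6 (0.22) and Cxcl16 (0.25), and Mlkl to Oas1f (0.13), Ncf4 (0.17) and H2-Q2 (0.20). Those nearest to Nlrp3 were 2 unnamed probes (0.12 and 0.18) and the olfactory receptor gene Olfr1387 (0.18). Among the 9 genes themselves the closest pairs were Ripk3 with Mlkl (0.37) and Casp1 with Ripk3 (0.37).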

How the data were processed

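For every spot a processed, linear intensity was deposited, made per the file headers by Agilent Feature Extraction 10.5.1.1 with background subtraction and no normalization between arrays, along with median intensities and marks for outliers, saturation and signal well above background. Outlier spots (47 to 113 per array) were left out, log2 of the deposited intensity was taken, replicate spots were averaged, and quantile normalization was run over all 15 arrays. The study's methods use natural logs, which differ by a constant factor. Probes were named by matching transcript accessions to RefSeq (GRCm38.p6); 26690 of 41174 (64.8%) matched. Mnda was matched as Ifi211, and Nlrp1b, Nlrp6, Cd68, Ly6g and Cps1 had no matched probe. Some genes of the pathway lists are not reported here and are in no count of those lists. Each comparison was a limma 3.58.1 fit of 6 arrays in R 4.3.3, the interaction 1 fit of all 5 groups, with Benjamini-Hochberg adjustment. The brightest probe of a gene was used. SFC used a bin size of 1000 and Bonferroni adjustment. A signal well above background needed at least 0.5 of a probe's spots so marked. "At least" folds use the lowest signal well above background on the dim arrays, or the dim probe's own where higher. The steps were tested on simulated data. Plots were made in Python 3.11.15 (matplotlib 3.10.9). Named genes are the 9 genes with all probes, pathway genes called in all 3 allograft comparisons or in opposite directions in the 2 organs, up to 4 others a list with the largest difference, and the 3 nearest genes of each member. Members, lists and rules were chosen with earlier results of these data known.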

Additional observations from a re-analysis of the deposited data

Results flagged for a closer look

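The POD5 difference from controls differed between the heart and the liver for 3 of the 9 genes, by the interaction term of the limma fit. Gsdmd differed by 1.92 (heart 2.37, liver 0.44, adjusted p = 1.66e-04), Zbp1 by 1.72 (heart 3.79, liver 2.06, adjusted p = 0.018) and Nlrp3 by 0.73 (heart 1.31, liver 0.58, adjusted p = 0.039). With slide as a random block Zbp1 (adjusted p = 0.055) and Nlrp3 (adjusted p = 0.052) were no longer called, and Nlrp3 kept its call in 5 of 15 fits that each left out 1 array. In the heart, and in the liver at POD5, slide cannot be told apart from graft.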

How the results depend on the processing

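The heart count of 8 was 9 with 75th percentile scaling, which adds Aim2 although it was below background, 7 with the replicate block, 0 with Bonferroni adjustment and 1 with SFC. SFC was Bonferroni adjusted in every count given here. The liver count of 3 at POD5 was 6 with 75th percentile scaling, with normexp and with only probes well above background, 7 in 1 fit of 5 groups, 0 with the replicate block, with slide as a random block, with Bonferroni and with the methods' t-test, and 1 with SFC. The liver count of 4 at POD8 was 7 with 75th percentile scaling (6 higher, and Aim2 lower), 0 with the replicate block, with Bonferroni, with the methods' t-test and within the shared slide (an alternative chosen after seeing the data), and 2 with SFC. Without adjustment the methods' t-test gave 8, 8 and 7 genes. Of 3 genes differing between organs, 1 was left with slide as a random block and 1 with Bonferroni, and the count between POD8 and POD5 was 0 throughout. Leaving out 1 array at a time gave 8 in the heart, 0 to 3 in the liver at POD5, 0 to 6 at POD8 and 2 to 4 between organs. Scaling to the 75th percentile moved the median of all genes to 0.57 in the heart, -0.43 and -0.54 in the liver and 0.78 between organs, and the share of calls that were higher from 50.4% to 76.5% in the heart, from 69.5% to 16.4% in the liver at POD8 and from 49.7% to 82.8% between organs. The 3 genes that differed between organs then had 2.02 (Gsdmd), 1.67 (Zbp1) and 1.04 (Nlrp3). Replicate numbers did not pair the samples: correlations between deviations of arrays with the same number were -0.124 to 0.044, and with the number as a block Pycard lost its heart call (adjusted p = 0.069). Signs turned only where no call was made. For Nlrp3 at POD8 the difference was 0.0056 with normexp and -0.21 to 0.062 leaving out 1 array. For Gsdmd between POD8 and POD5 it was -0.11 to 0.0145 leaving out 1 array. Between organs, Casp1 was -0.0016 with 75th percentile scaling, and leaving out 1 array gave -0.31 to 0.57 for Casp1, -0.32 to 0.088 for Casp4 and -0.61 to 0.24 for Ripk3. The causes were not tested. Signal over background limits Nlrp3 most and leaves Aim2 unmeasured.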
